A study of Saccharomyces cerevisiae with 6 samples.

Results

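The wine yeast EC1118 was set against VL3 and AWRI796, with SO2 present in all 3 cultures, and the genes whose transcript level lay outside the range of the other 2 strains were described. All 3 are enological strains of Saccharomyces cerevisiae, that is, strains selected for winemaking. Genes entered the comparison when they had a value in all 3 libraries and a mean RPKM (a read number corrected for how long the gene is and how many reads were mapped) of at least 5. Of 6603 features in the deposited table, 5045 met this rule, and EC1118 lay outside the range in 3225 of them.

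The EC1118, VL3 and AWRI796 cultures each received 25 mg/l of SO2 and grew at 25 °C in MS300, a synthetic must modelled on that of white wine. Cells were taken in mid exponential phase, once 6 g/l of CO2 had been released. Cultures of VL3 and AWRI796 without SO2, and of R008, a vineyard strain, with SO2, give further values. The EC1118 and R008 cultures lacking SO2 were not analysed here. The 6 cultures gave 1 library apiece, so no strain has a replicate, and a difference between strains cannot be told apart from a difference between single cultures.

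SO2 is added to must as a preservative. Inside the cell it exists as sulfite, which binds acetaldehyde and other carbonyl compounds, and the plasma membrane pump Ssu1 exports it. Wine strains differ in this export and also in how they take up and use the amino acids, peptides, sugars and vitamins of must.

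Sulfite export itself did not set EC1118 far apart. SSU1 stood at 942 scaled RPKM (RPKM divided by a scaling factor for each library) in EC1118, against 713 in VL3 and 551 in AWRI796. FZF1, which encodes the activator of SSU1, stood at 17.7 in EC1118, against 14.6 in VL3 and 13.4 in AWRI796. EC1118 was the highest of the 3 for both genes, and neither gap reached 1.5-fold. R008 with SO2 had 2974 scaled RPKM of SSU1, and AWRI796 without SO2 had 11.1.

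EC1118 was above both other strains in 1535 of the 5045 genes (30.4%) and below both in 1690 (33.5%), and it lay between them in 1820. Most gaps were small. Counted on log2(scaled RPKM + 1), a scale that understates the change of genes with low values, EC1118 was at least 1.5-fold above the higher strain in 240 genes (4.76%) and at least 1.5-fold below the lower strain in 180 (3.57%). The gap reached 2-fold above in 60 genes (1.19%) and 2-fold below in 31 (0.614%). At the edge of this threshold, HAL1 and CIS1 passed with gaps of 1.01 and 1.02 on the log2 scale, while SRL3 at 0.99 and YOR338W at 0.98 fell short. On the lower side, HSP12 at -1.01 and ERP3 at -1.02 passed, while BNA4 at -0.998 and MCD4 at -0.99 fell short.

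EC1118 was not the strain that stood apart most often. It was outside the range of the other 2 in 63.9% of genes, VL3 in 71.1% and AWRI796 in 64.9%. At 2-fold the same counts were 91 genes for EC1118, 130 for VL3 and 139 for AWRI796. The median absolute log2 difference was 0.34 between EC1118 and VL3, 0.32 between EC1118 and AWRI796, and 0.36 between AWRI796 and VL3.

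**Figure D1:**
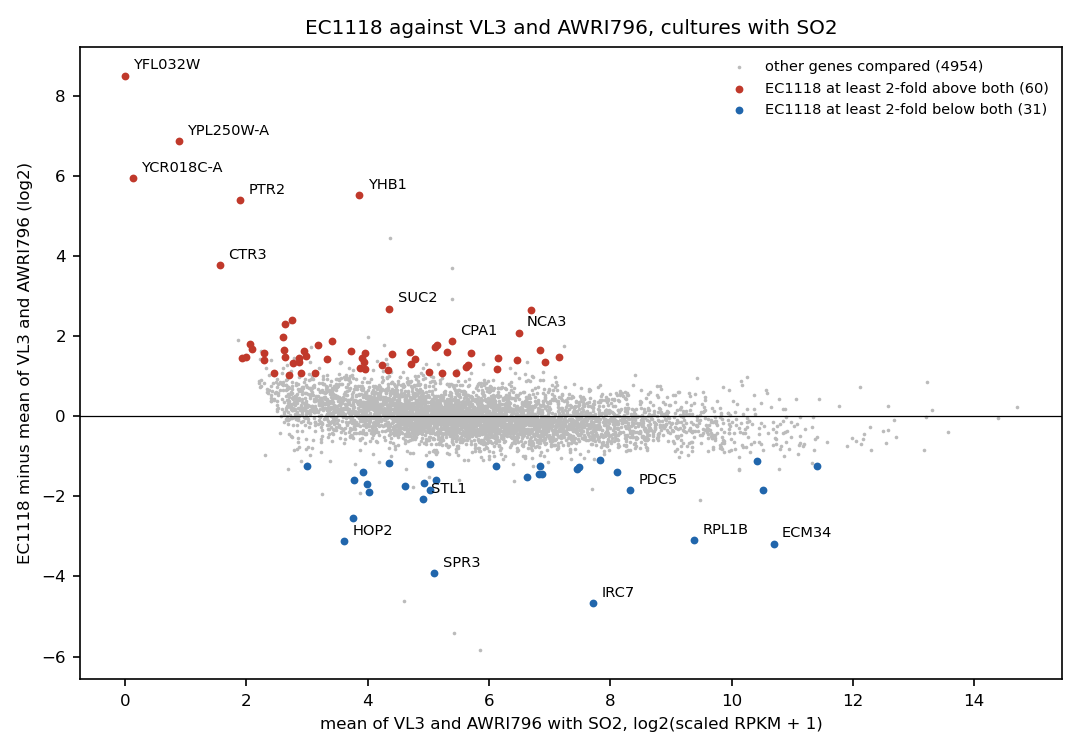
The vertical axis is the EC1118 level minus the mean of VL3 and AWRI796 (log2), and the horizontal axis is that mean, as log2(scaled RPKM + 1); each point is 1 of 5045 genes, with 1 library a strain. The 60 genes at least 2-fold above both strains (red) include YHB1 and PTR2, and the 31 at least 2-fold below both (blue) include IRC7, SPR3 and ECM34; grey points far from 0 are genes in which VL3 and AWRI796 themselves differed widely.

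After 3 short reading frames taken up further on, the widest gap above both strains was in YHB1, which encodes a flavohemoglobin that detoxifies nitric oxide. YHB1 (YGR234W, chromosome 7, 959904 to 961103, R64) stood at 668 scaled RPKM in EC1118, against 15.7 in VL3 and 11.6 in AWRI796. EC1118 exceeded the nearer strain 39.9-fold. VL3 without SO2 had 14.1 and AWRI796 without SO2 had 6.44, so YHB1 was low in all 4 libraries of these strains. R008 with SO2 had 391.8, so that the vineyard strain was also high.

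PTR2, which encodes the plasma membrane carrier of di- and tripeptides, was next. PTR2 (YKR093W, chromosome 11, 615730 to 617535) stood at 155 scaled RPKM in EC1118, against 1.56 in VL3 and 4.38 in AWRI796. Without SO2 it was at 3.26 in VL3 and 4.29 in AWRI796, and R008 with SO2 had 12.2. EC1118 alone was high among the 6 libraries.

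On the lower side the widest gap was in IRC7, a gene for a putative cystathionine beta-lyase that in wine yeast releases volatile thiols from cysteine conjugates. IRC7 (YFR055W, chromosome 6, 264204 to 265226) stood at 7.31 scaled RPKM in EC1118, against 187 in VL3 and 234 in AWRI796. It was at 267 in VL3 and 185 in AWRI796 without SO2 and at 135 in R008, so EC1118 alone was low. The gene lies 4935 bases from the chromosome end and overlaps the reading frame YFR056C, so that reads of the 2 cannot be told apart here. SPR3, a septin gene known for its role in sporulation, stood at 1.28 in EC1118, against 31.8 in VL3 and 34.8 in AWRI796, with R008 also near 0 at 0.28.

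limma was fitted to the 3 libraries with SO2 to ask whether EC1118 stood farther from both strains than these stood from each other. The fit has 1 residual degree of freedom, pools the spread over genes and assumes that the lone EC1118 library varies like the other 2 strains. At a limma adjusted p under 0.05 (Benjamini-Hochberg over all 5045 genes), 5 genes were higher in EC1118 (0.0991%) and 2 were lower (0.0396%), and 140 had an unadjusted p under 0.05. YHB1 was higher by a log2 difference of 5.52 ± 0.39 (SE, limma adjusted p = 0.00588). PTR2 was higher by 5.40 ± 0.57 (SE, limma adjusted p = 0.0287). IRC7 differed by -4.66 ± 0.38 (SE, limma adjusted p = 0.0103) and SPR3 by -3.91 ± 0.44 (SE, limma adjusted p = 0.0362). These p-values come from the same 3 libraries that placed the genes outside the range, so they give no independent support. PTR2 and the 3 short reading frames taken up next were under 5 scaled RPKM in both VL3 and AWRI796. They met the rule on mean RPKM only through the EC1118 library in which they were high. With no filter on low values limma called none of the 7 genes, and 284 of 6099 had an unadjusted p under 0.05.

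The other 3 calls were small reading frames that overlap a neighbour or lie opposite a repeat. YFL032W and YPL250W-A are named here after their values were seen. YFL032W, a dubious reading frame overlapping the start of HAC1, had 363 scaled RPKM in EC1118 and was listed at 0 in VL3 and AWRI796. It spans 74872 to 75192 on chromosome 6 and HAC1 spans 75179 to 76147, so most of YFL032W lies outside HAC1. HAC1 itself, which encodes the transcription factor of the unfolded protein response, stood at 1418 in EC1118, against 1974 in VL3 and 2064 in AWRI796. YPL250W-A, a dubious frame overlapping the ribosomal protein gene RPL36B, had 216 in EC1118, against 0.28 in VL3 and 1.65 in AWRI796. RPL36B had no value in EC1118, against 91.8 in VL3 and 150.02 in AWRI796. Reads from the bases that overlapping genes share cannot be assigned to one of them from these files. YCR018C-A, encoded opposite a transposon repeat, had 66.3 in EC1118, was listed at 0 in VL3 and had 0.19 in AWRI796.

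**Figure D2:**
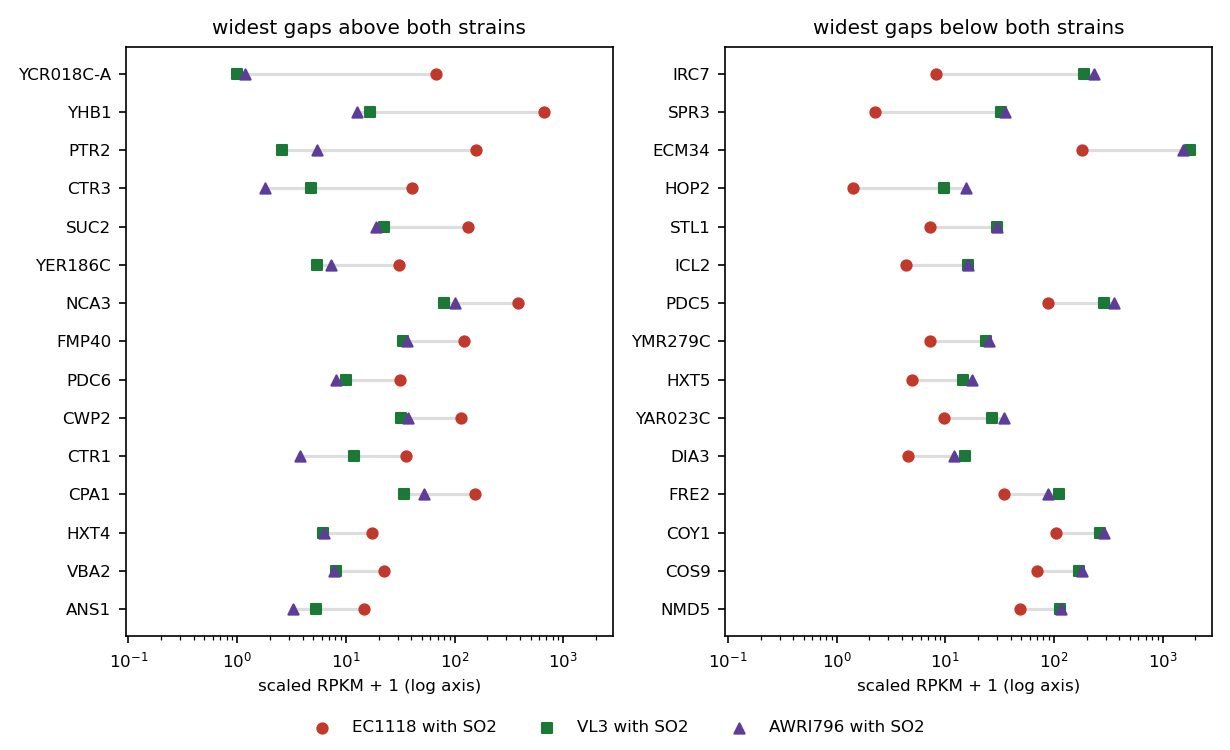
Each row is 1 gene and the horizontal log axis is scaled RPKM + 1 in EC1118 (circles), VL3 (squares) and AWRI796 (triangles), all with SO2 and 1 library each; the left panel holds the 15 widest gaps above both strains and the right panel the 15 widest below, without dubious frames and near-identical copies. VL3 and AWRI796 lie close together in most rows, with EC1118 to one side, as for SUC2 at 131 scaled RPKM in EC1118 against 21.3 in VL3 and 17.8 in AWRI796.

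Counts for gene lists stand beside shares over all genes of 30.4% above both strains and 33.5% below, and list medians beside -0.02. Several genes of peptide use stood with PTR2, in a list of peptide uptake and peptidase genes that was written after their values were seen. Of its 14 members compared, 9 were above both strains, 3 were below and 5 were at least 2-fold above. The median difference from the mean of the other strains was 0.54 on the log2 scale. These counts and this median are partly fixed by how the list was chosen. AAP1, which encodes an arginine and alanine aminopeptidase, stood at 154.5 scaled RPKM in EC1118, against 45.3 in VL3 and 57.4 in AWRI796. CPS1, a vacuolar carboxypeptidase gene, stood at 192 in EC1118, against 57.9 in VL3 and 84.4 in AWRI796. DUG1, which encodes a dipeptidase that cleaves the cysteine and glycine pair of glutathione, stood at 116 in EC1118, against 44.6 in VL3 and 52.2 in AWRI796. CUP9, which encodes the repressor of PTR2 and was counted in this list, stood at 60.8 in EC1118, against 15.3 in VL3 and 26.3 in AWRI796. The vacuolar protease genes PRC1, PEP4 and PRB1 did not follow. PRC1, the gene for carboxypeptidase Y, stood at 1777 in EC1118, against 2263 in VL3 and 1933 in AWRI796, and PEP4 and PRB1 lay between the other 2 strains.

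Arginine synthesis was the amino acid pathway with the widest gaps. In the list of 48 amino acid synthesis genes known as Gcn4 targets, 24 were above both strains and 12 below, with a median difference of 0.17. The 4 members at least 2-fold above were all arginine genes. CPA1, the small subunit of the carbamoyl phosphate synthetase of this pathway, stood at 153 scaled RPKM in EC1118, against 33.0 in VL3 and 50.9 in AWRI796. ARG1, argininosuccinate synthetase, stood at 232 in EC1118, against 94.2 in VL3 and 81.5 in AWRI796. ARG3, ornithine carbamoyltransferase, stood at 23.1 in EC1118, against 4.54 in VL3 and 9.89 in AWRI796. ARG8, acetylornithine aminotransferase, stood at 157 in EC1118, against 66.8 in VL3 and 71.1 in AWRI796. For these 4 genes EC1118 was above every VL3 and AWRI796 library, without and with SO2.

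A list of 13 arginine synthesis and use genes, written after values were seen, includes CPA1, ARG1, ARG3 and ARG8. It had 10 above both strains and none below, with a median of 0.40. These numbers recount those 4 genes and are partly fixed by how the list was chosen. No other member was 1.5-fold above both strains. ARG4 and ARG7 were above both by 0.17 and 0.10 on the log2 scale. The short upstream reading frame YOR302W, whose arginine attenuator peptide controls translation of CPA1, stood at 38.2 in EC1118, against 13.97 in VL3 and 14.6 in AWRI796. Lysine synthesis went the other way at LYS9, saccharopine dehydrogenase, with 1155 in EC1118, against 2396 in VL3 and 3078 in AWRI796, though AWRI796 without SO2 had 685. LYS12 was also below both, at 1050 in EC1118, against 1810 in VL3 and 1612 in AWRI796, while LYS20 at 173 in EC1118 was above VL3 at 73.3 and AWRI796 at 109.

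Gcn4 is the activator of amino acid synthesis genes, and its core motif TGACTCA was searched on both strands in the 300 bases before each start codon of the reference genome. It was found in 4 of 8 arginine synthesis genes, in 19 of the 48 amino acid synthesis genes (39.6%) and in 2.69% of 5733 promoters. The arginine genes with a match were ARG8 and also ARG4, ARG5,6 and ARG7, which had no 2-fold gap. Of the 4 arginine genes with 2-fold gaps only ARG8 held a match, and no match lay in the windows of CPA1, ARG1 and ARG3. The ARG8 window (chr15:58459-58758, plus strand, R64) is shown as the one among them with the motif, in capitals, starting 180 bases before the start codon. It is the RefSeq reference and not the sequence of these strains.
ARG8: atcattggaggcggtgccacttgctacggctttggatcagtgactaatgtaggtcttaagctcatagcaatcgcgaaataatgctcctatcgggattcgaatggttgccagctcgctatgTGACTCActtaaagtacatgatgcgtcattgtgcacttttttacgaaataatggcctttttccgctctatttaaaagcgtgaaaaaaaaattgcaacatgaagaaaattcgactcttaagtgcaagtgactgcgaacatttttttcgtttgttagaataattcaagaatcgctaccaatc

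**Figure D3:**
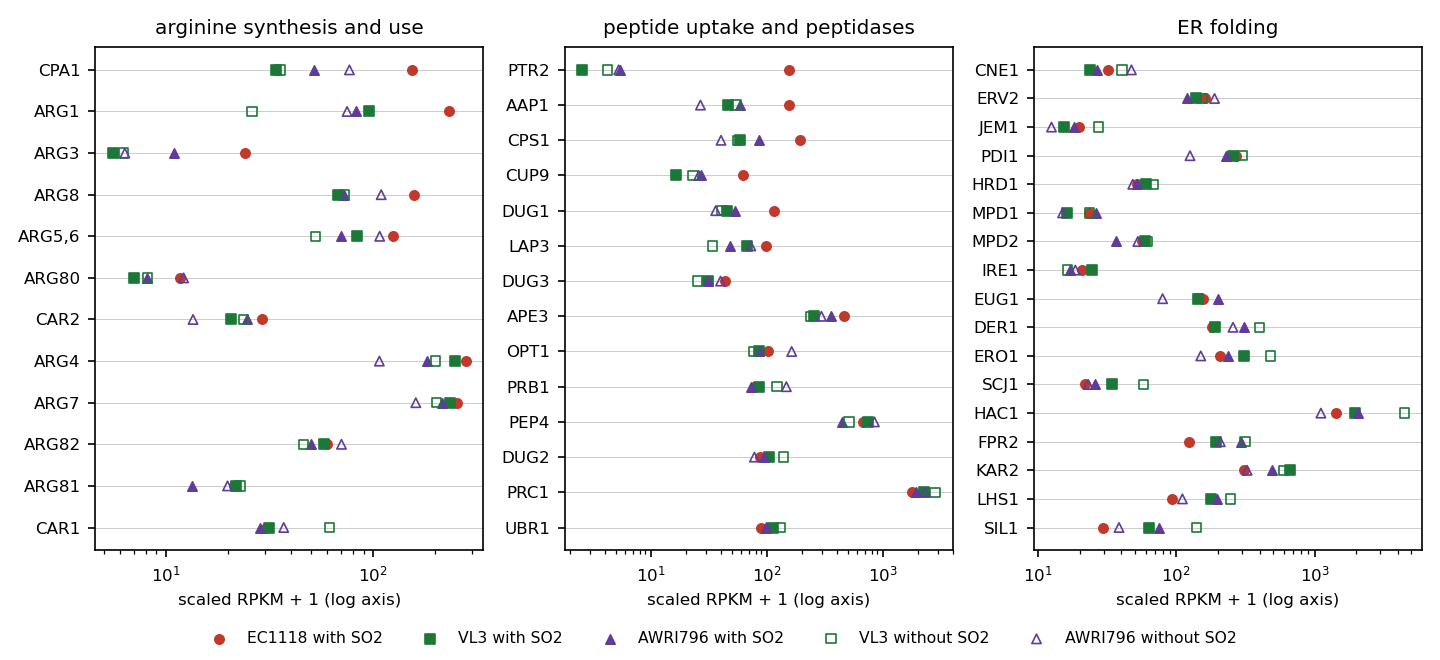
Each row is 1 gene of the arginine, peptide and endoplasmic reticulum lists (1 arginine gene is not drawn) and the horizontal log axis is scaled RPKM + 1, with filled symbols for EC1118, VL3 and AWRI796 with SO2 and open symbols for VL3 and AWRI796 without SO2, 1 library each. EC1118 lies to the right of all other libraries for CPA1, ARG1, ARG3, ARG8, PTR2, AAP1, CPS1, CUP9 and DUG1. It lies to the left of all others for SIL1, LHS1 and KAR2, only narrowly so for KAR2.

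Both high-affinity copper carriers of the plasma membrane were higher in EC1118. CTR3 stood at 39.7 scaled RPKM in EC1118, against 3.81 in VL3 and 0.81 in AWRI796. Being under 5 in both of these, it met the rule on mean RPKM only through the EC1118 library in which it was high. CTR1 stood at 34.8 in EC1118, against 10.997 in VL3 and 2.75 in AWRI796. MAC1, which encodes the copper-sensing activator of both, lay between the other strains at 82.8 in EC1118, 77.4 in VL3 and 94.7 in AWRI796, as did the reductase gene FRE1. Over the whole list of 16 copper and zinc genes, 4 were above both strains and 4 below, with a median of -0.0046. The metallothionein gene CRS5 stood at 186 in EC1118, against 281 in VL3 and 334 in AWRI796. The near-identical copies CUP1-1 and CUP1-2 were listed at 0 in EC1118, against 1829 in VL3 for each, and reads could be split between such copies, so their values are uncertain. CTR1 overlaps another reading frame on the chromosome.

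Sugar genes differed at single members. SUC2, invertase, was at 131 in EC1118, as given above, and was near 20 in both strains without SO2 as well, at 19.9 in VL3 and 18.9 in AWRI796. HXT4, a high-affinity glucose carrier, stood at 16.5 in EC1118, against 5.21 in VL3 and 5.24 in AWRI796. HXT5, a carrier induced at low growth rate, stood at 3.94 in EC1118, against 13.5 in VL3 and 16.5 in AWRI796. Of the 9 hexose transport and sensing genes compared, 5 were above both strains and 2 below.

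The isoforms of pyruvate decarboxylase, the enzyme that makes acetaldehyde, differed in opposite directions. PDC6 stood at 30.4 scaled RPKM in EC1118, against 9.08 in VL3 and 7.14 in AWRI796. Without SO2 it was at 29.9 in VL3 and 36.4 in AWRI796, so EC1118 with SO2 was close to those cultures. PDC5 stood at 88.1 in EC1118, against 287 in VL3 and 357 in AWRI796, and at 2495 in R008. Over the 17 genes of pyruvate, acetaldehyde, ethanol and acetate metabolism, 5 were above both strains and 5 below.

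Oxidative stress and glutathione genes were above both strains in 17 of 31 cases and below in 4, with a median difference of 0.33, and 3 were at least 1.5-fold above. Apart from YHB1 these were AHP1, a thiol peroxiredoxin gene, at 2101 in EC1118, against 1188 in VL3 and 1093 in AWRI796, and the glutaredoxin gene GRX2. Without SO2, AHP1 was at 599 in VL3 and 1883 in AWRI796. GRX2 stood at 223 in EC1118, against 115 in VL3 and 121 in AWRI796, and at 306 in AWRI796 without SO2. The widest gap below was in the cytosolic catalase gene CTT1, at 40.8 in EC1118, against 144 in VL3 and 87.8 in AWRI796. Multidrug and weak acid export genes were above both strains in 13 of 22 cases and below in 3, with a median of 0.21. QDR2, an exporter of the major facilitator family, stood at 45.0 in EC1118, against 15.7 in VL3 and 13.3 in AWRI796. PDR15, an ABC exporter gene, stood at 119 in EC1118, against 54.0 in VL3 and 27.3 in AWRI796. Without SO2, AWRI796 had 196 of PDR15 and so exceeded EC1118.

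Genes of sulfur metabolism had mixed positions. Of 9 genes of sulfate uptake and reduction 3 were above both strains and 6 below. MET5, the catalytic beta subunit of sulfite reductase, stood at 470 in EC1118, against 857 in VL3 and 790 in AWRI796. YCT1, a cysteine carrier gene, stood at 397.5 in EC1118, against 119 in VL3 and 169 in AWRI796. AWRI796 without SO2 had 418 of YCT1 and R008 had 433, both above EC1118. MET17, which incorporates sulfide into homocysteine, stood at 2435 in EC1118, against 965 in VL3 and 1554 in AWRI796. Of 18 methionine, cysteine and SAM synthesis genes, 9 were above both strains and 7 below, with a median of 0.47 from the mean of the other strains, 0.16 from VL3 and 0.12 from AWRI796.

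Thiamine synthesis genes were low in EC1118. Of the 14 thiamine and pyridoxine genes compared, 9 were below both strains and 2 above, with 4 at least 1.5-fold below and a median difference of -0.35. THI4, which makes the thiazole part of the vitamin, stood at 714 in EC1118, against 2271 in VL3 and 1378 in AWRI796. THI6 stood at 360.0 in EC1118, against 661 in VL3 and 644 in AWRI796. THI80, thiamine pyrophosphokinase, stood at 69.7 in EC1118, against 122 in VL3 and 170.3 in AWRI796. The carrier gene THI7 differed little, at 234 in EC1118, against 223 in VL3 and 223 in AWRI796.

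Markers of stationary phase were mostly lower in EC1118. Of 16 stationary phase markers 10 were below both strains and 3 above, with a median of -0.49. At 1.5-fold, 4 were below and 2 above. One of those above was FMP16, at 60.4 in EC1118, against 33.0 in VL3 and 31.9 in AWRI796. HSP12, a membrane-protecting small heat shock protein gene, stood at 407 in EC1118, against 821 in VL3 and 2597 in AWRI796. Without SO2 its level was 614 in VL3 and 12029 in AWRI796, so this gene varied widely among the other libraries. Of 40 general stress and heat shock genes 13 were below both strains, a share near the 33.5% of all genes, and 3 were above, with a median of -0.10. Of these 13, 5 were at least 1.5-fold below. SSA4, an HSP70 chaperone gene, stood at 58.4 in EC1118, against 386 in VL3 and 111 in AWRI796, and HSC82, an HSP90 gene, stood at 503 in EC1118, against 1045 in VL3 and 839 in AWRI796. HSC82 was at 288 in AWRI796 without SO2 and so below EC1118 there.

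Chaperones of the endoplasmic reticulum showed a partial shift, in a list also written after values were seen. Of 17 genes 8 were below both strains and 4 above, with 4 at least 1.5-fold below, counts partly fixed by how the list was chosen. KAR2, the HSP70 of this compartment, stood at 306 in EC1118, against 669 in VL3 and 490 in AWRI796. Without SO2, KAR2 was at 597 in VL3 and at 324 in AWRI796, the latter close to EC1118. The nucleotide exchange factors of this HSP70 were also lower. SIL1 stood at 28.6 in EC1118, against 63.0 in VL3 and 74.3 in AWRI796, and LHS1 stood at 91.4 in EC1118, against 179 in VL3 and 198 in AWRI796. The disulfide isomerase gene PDI1 was not lower, at 271 in EC1118, against 256 in VL3 and 229 in AWRI796.

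For several large groups the result depended on which strain EC1118 was set against. The 132 cytosolic ribosomal protein genes had a median difference of 0.18 from VL3 and -0.78 from AWRI796, and 77 of them lay between. The 24 ergosterol synthesis genes had a median of -0.51 from VL3 and 0.16 from AWRI796. The 66 mitochondrial ribosomal protein genes were close in both comparisons, with medians of -0.04 from VL3 and 0.01 from AWRI796.

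**Figure D4:**
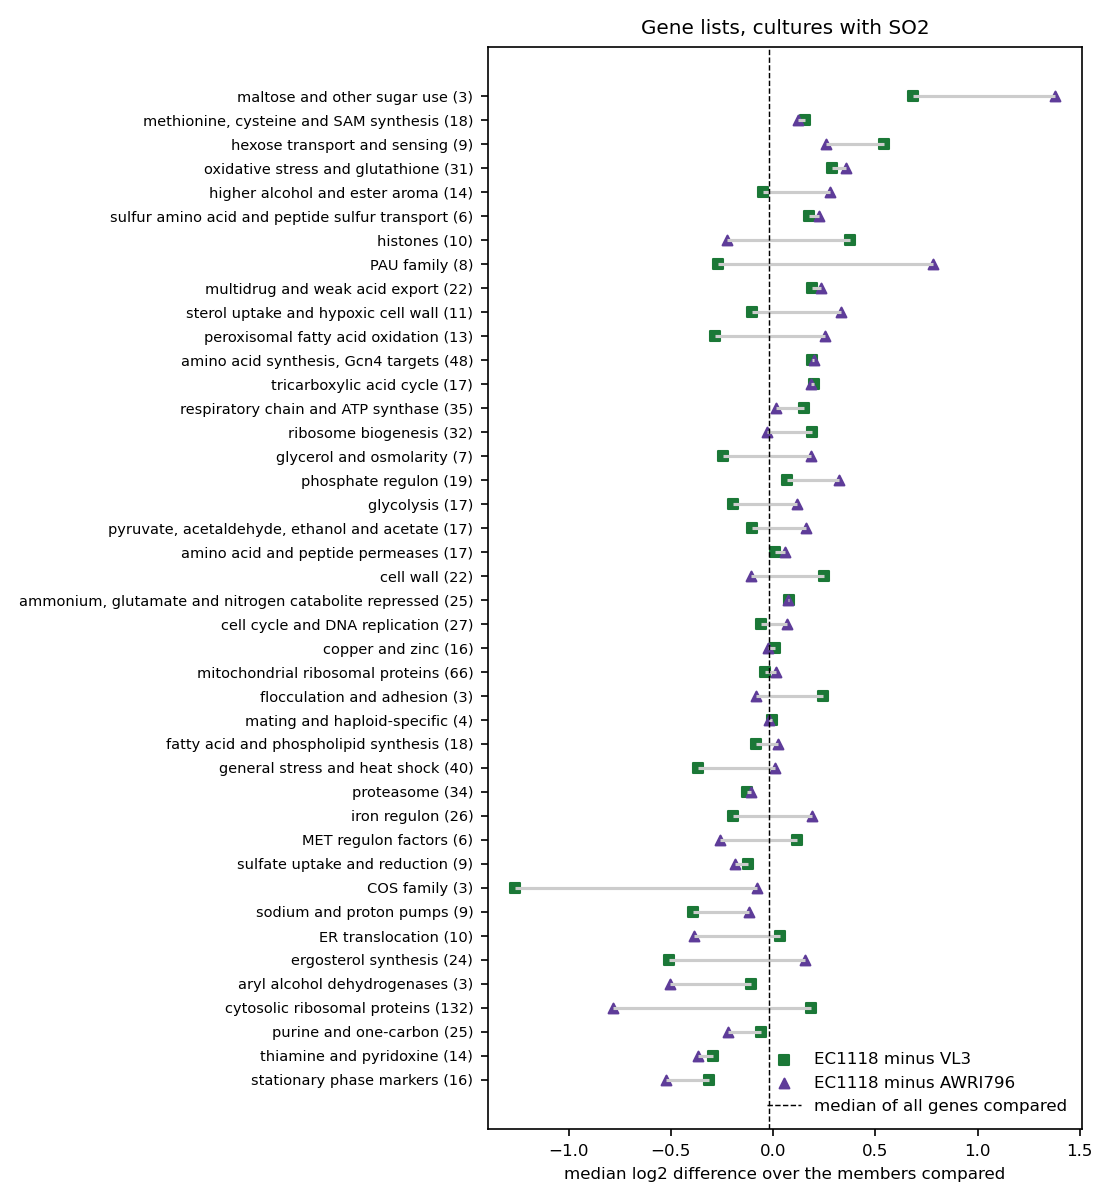
Each row is 1 of 42 gene lists, with the number of members compared in brackets, and the horizontal axis is the median log2 difference of EC1118 from VL3 (squares) and from AWRI796 (triangles), with SO2; the dashed line is the median over all genes, -0.02. Thiamine and stationary phase genes lie to the left for both strains and oxidative stress genes to the right, while cytosolic ribosomal proteins stand on opposite sides.

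Further genes with wide gaps belonged to no one group. NCA3, a gene with a role in expression of mitochondrial ATP synthase subunits, stood at 383 in EC1118, against 78.9 in VL3 and 100.2 in AWRI796. Its level without SO2 was 28.6 in VL3 and 212 in AWRI796, and R008 had 170. CWP2, a cell wall mannoprotein gene, stood at 114 in EC1118, against 31.4 in VL3 and 36.3 in AWRI796. ECM34, whose promoter is exchanged with that of SSU1 in wine strains that carry a known translocation, stood at 182 in EC1118, against 1781 in VL3 and 1544 in AWRI796. R008 had 5.27 of ECM34. STL1, the glycerol symporter, stood at 6.18 in EC1118, against 28.9 in VL3 and 29.1 in AWRI796, but was only at 1.96 in VL3 and 0.87 in AWRI796 without SO2. HOP2, a meiosis gene, stood at 0.42 in EC1118, against 8.67 in VL3 and 14.5 in AWRI796. It was as low in AWRI796 without SO2, at 0.55, and in R008, at 0.45.

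Some genes with wide gaps have near-identical copies, so that reads could be split between them. RPL1B stood at 76.8 in EC1118, against 863 in VL3 and 511 in AWRI796, and its copy RPL1A stood at 167 in EC1118, against 317 in VL3 and 1612 in AWRI796. PAU13, of the seripauperin family, stood at 655 in EC1118, against 222 in VL3 and 46.9 in AWRI796.

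Chromosome position was not used in choosing genes. Of the 60 above, 10.0% lay within 30 kb of a chromosome end and of the 31 below, 22.6%, beside 3.37% of all genes compared. By level, which the comparison itself used, the genes above had a median of 18.9 scaled RPKM over the 3 libraries and the genes below 51.2, beside 48.7 for all genes. EC1118 was on the same side of all 4 VL3 and AWRI796 libraries in 53 of the 60 and 26 of the 31, beside 2005 of all 3225 genes outside the range. These counts are partly fixed by the choice of genes, since 2 of the 4 libraries made that choice. The 2-fold gap held against all 4 in 31 genes above (0.614%) and 13 below (0.258%). Among the 2-fold genes, FRE2 and COS9 on chromosome 11 were neighbours and both below, and YLL056C and YCT1 on chromosome 12 were neighbours and both above.

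Chromosome 1 had the lowest median difference of all 16 chromosomes. Of its 67 genes compared, 40 (59.7%) were below both strains and 11 (16.4%) above. The median difference was -0.30 from VL3 and -0.36 from AWRI796. The medians of the other 15 chromosomes, against the mean of both strains, ran from -0.07 to 0.10, and their shares below both from 24.2% to 43.2%. The genes below both lay on both arms, with 33 of 57 genes below both on the left arm and 7 of 10 on the right. Gaps were moderate, and 10 of the genes were at least 1.5-fold below. AIM2, a gene of mitochondrial organisation, stood at 73.9 in EC1118, against 190.0 in VL3 and 168 in AWRI796. PMT2, a protein mannosyltransferase gene, stood at 168 in EC1118, against 294.5 in VL3 and 316 in AWRI796. CYS3, which makes cysteine from cystathionine, went the other way, at 103 in EC1118, against 73.3 in VL3 and 53.5 in AWRI796. In these 67 genes the median of AWRI796 with SO2 minus AWRI796 without SO2 was -0.44, and that of AWRI796 minus VL3 with SO2 was -0.02.

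**Figure D5:**
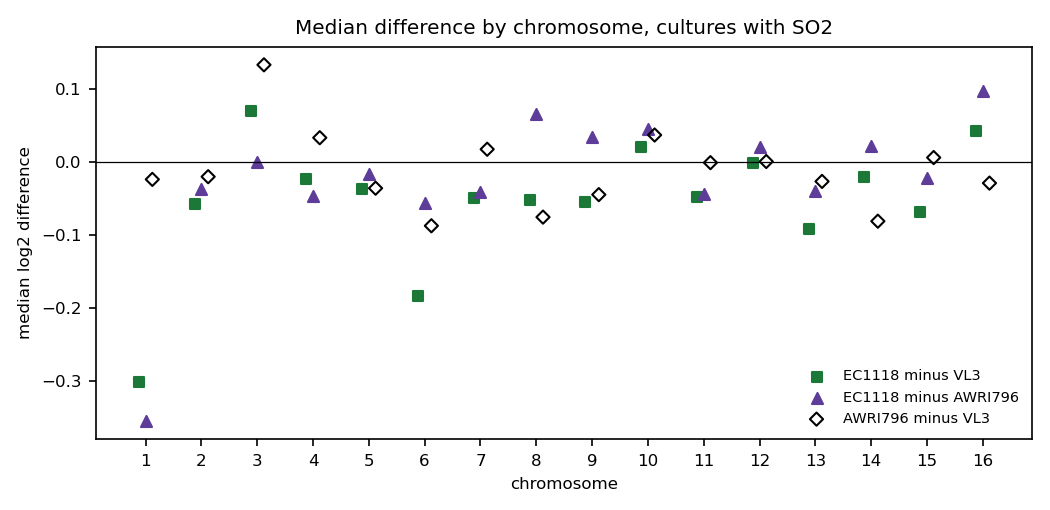
The vertical axis is the median log2 difference over the genes of each chromosome, for EC1118 minus VL3 (squares), EC1118 minus AWRI796 (triangles) and AWRI796 minus VL3 (diamonds), all with SO2 and 1 library each. On chromosome 1 both EC1118 medians lie at -0.30 and -0.36, below those of every other chromosome, while AWRI796 minus VL3 lies near 0.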

How the data were processed

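The authors deposited 1 table of RPKM for 6 libraries, per the file headers. Whole transcriptome libraries for the SOLiD 4 came from total RNA depleted of ribosomal RNA, per the labels' protocols. The aligner, counting tool and gene models per strain, not given in the sources used here, can add to a strain difference. Coordinates in the table equalled those of R64 for 5860 of 5869 genes found in both. Of 6611 features read, 8 that shared 4 names were left out.

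Depth is unknown and no counting interval is given: the best-fitting read size put only 29.8% to 32.9% of a library's low values within 0.1 of whole reads, where any one size gives 20%, so reads were not recovered. RPKM were divided by median-of-ratios factors from 5409 genes (1.01 for EC1118, 1.00 for VL3 and 1.10 for AWRI796 with SO2), and analysed as log2(scaled RPKM + 1). Gaps are to the nearer of the other 2 strains and carry no test. With limma 3.58.1 (R 4.3.3), lmFit and a trended eBayes set EC1118 against the mean of VL3 and AWRI796, two-sided, with Benjamini-Hochberg adjustment. Its p-values reflect how far the 2 strains differed, pooled over genes with 5.84 prior degrees of freedom. Tested on simulated data of 5045 genes for this comparison, with 50 genes changed at each size, it called 15 at a log2 change of 1, 47 at 2, 50 at 3 and 50 at 4, and 5 unchanged genes. The simulated noise had the pooled spread alone, and only genes with a mean log2 level above 4 were changed. Spread differs more from gene to gene in the real data, so these counts can overstate what the fit finds. In the real fit ECM34 at -3.18 and CTR3 at 3.78 were not called.

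The comparison, the 48 gene lists and the 5 lists added later were chosen with earlier results of these data known. No list was given a set test, and its counts and median are read against the all-gene values given once in the report. Of the 48 lists, 42 had at least 3 members compared and 3 had none. Named genes follow a rule: leaving out dubious frames and near-identical copies (at least 95% identity over 80% of the coding sequence, BLAST+ 2.17.0), the 15 widest gaps each way, the 10 widest each way also outside all 4 VL3 and AWRI796 libraries at 50 or more scaled RPKM, up to 4 members of a list past 1.5-fold, the 10 lowest limma p each way, SSU1 and FZF1, and genes next to the 2-fold threshold. HAC1, RPL36B, YOR302W, the genes with near-identical copies, the chromosome 1 genes and list members short of 1.5-fold were chosen after their values were seen, as were CPS1, DUG1, CUP9, LYS9, LYS12, LYS20 and LHS1. Values of 2 genes are not reported here. Alternatives changed the pseudocount, the filter, the scaling, the strains compared and the libraries fitted.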

Additional observations from a re-analysis of the deposited data

How the results depend on the processing

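No paired analysis was possible because each strain has 1 library with SO2. The count of genes at least 2-fold above both strains, 60, became 91 with no filter on low values, 36 at a minimum mean of 20, 245 against VL3 alone, 191 against AWRI796 alone and 31 against all 4 VL3 and AWRI796 libraries. The count below, 31, became 118 against VL3 alone, 163 against AWRI796 alone and 13 against all 4 libraries. It stayed within 1.5 times of 31 (22 to 37) under the other pseudocounts, filters and scalings, as did the count above (42 to 69) under the pseudocounts and scalings. An alternative chosen after seeing the data, without dubious, overlapping and near-identical genes, gave 48 above and 25 below.

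The limma count of genes higher in EC1118, 5, became 1 at a pseudocount of 0.1, 0 with no filter, 3 at a minimum mean of 20 and 3 with quantile normalization. The count lower, 2, became 1 at a pseudocount of 0.1, 1 at a pseudocount of 5, 0 with no filter, 1 at a minimum mean of 20 and 1 with quantile normalization. Beside the counts of 0 from limma, 284 genes had an unadjusted p under 0.05, and the prior degrees of freedom were 1.17, against 5.84 with the filter. Of 8 settings, the one reported included, IRC7 and YHB1 were called in 7, YFL032W and YPL250W-A in 6, PTR2 in 4, and SPR3 and YCR018C-A in 3. Over these settings the limma adjusted p ran from 0.00281 to 0.216 for YHB1, from 0.00729 to 0.215 for IRC7, from 0.00703 to 0.637 for PTR2 and from 0.0362 to 0.300 for SPR3.

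No gap of the 109 named genes changed sign under any alternative run. Only the changes of scaling, quantile normalization included, could have reversed a sign. The other pseudocounts, filters and choices of library cannot, since they keep the order of the strains compared. Against all 4 VL3 and AWRI796 libraries 25 gaps dropped under 2-fold, of which those of PDC6, STL1, YMR279C, FRE2, YCT1 and PDR15 lay within their range. Medians of many gene lists changed sign under at least 1 alternative, and the following are examples. The median of the proteasome list was -0.10 and became 0.08 with quantile normalization, and that of sulfate uptake and reduction was -0.18 and became 0.0084. That of copper and zinc was -0.0046 and became 0.10 with quantile normalization. That of pyruvate, acetaldehyde, ethanol and acetate genes was 0.04 and became -0.05 at a minimum mean of 20. That of general stress genes was 0.01 against AWRI796 alone. With 1 library a strain and unknown depth, low values have no error of their own.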

Other observations

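Features with a value in only some strains stood outside the comparison. Of genes with an identifier of the Saccharomyces Genome Database, 117 had a value in EC1118 and in neither VL3 nor AWRI796 with SO2, of which 59 also had one in R008, and 26 reached 50 RPKM. The highest was DDR48, a DNA damage-responsive gene, at 1198 RPKM in EC1118. A further 47 features without such an identifier had a value in EC1118 and in neither of the other 2, and 7 of these reached 50 RPKM. In the other direction, 96 genes had a value in VL3 and AWRI796 and none in EC1118. Among them were HEM3, a heme synthesis gene, at 195 scaled RPKM in VL3 and 166 in AWRI796, and IDH1, a subunit of isocitrate dehydrogenase, at 147 in VL3 and 206 in AWRI796. SOD2, the mitochondrial superoxide dismutase gene, stood at 74.7 in VL3 and 61.0 in AWRI796. Since such housekeeping genes had no value at all in EC1118, a missing value here was not read as an absent transcript.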
